A study of Mus musculus with 35 samples.

Results

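The genes described here are Ccl2, Ccl7, Ccl8 and Ccl12, which encode 4 monocyte-attracting CC chemokines of the mouse. They were chosen by name, with earlier results of these data known. Every array probe whose RefSeq accession maps to one of these symbols was taken, over all arrays. Each gene had 1 probe, so the 4 genes stand beside 20660 genes with a probe on the array, and all 4 are among the 15621 named genes that passed the filter on dim probes. The probes are A_51_P286737 for Ccl2, A_51_P436652 for Ccl7, A_51_P464703 for Ccl8 and A_55_P1984556 for Ccl12. All 4 probes were well above background in the Cy5 and the Cy3 channel on all 35 arrays.

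The study asked how strongly nanomaterials perturb pathways in the lung, and set 3 code-named materials, NRCWE-043, NRCWE-044 and NRCWE-045, against controls 1 day after exposure. Female C57BL/6 mice, 5 to 7 weeks old, received a single dose of 18 or 54 µg by intratracheal instillation in 40 µl, and lungs were taken 24 h later. The 7 groups were a control group and each material at each dose, with 5 arrays per group. The labels do not say what the control mice received, and they name the materials by code alone. All groups share strain, sex, age range and time, and the labels name no mutation or transgene in any group. Each array held Cy5-labelled lung RNA beside Cy3-labelled reference RNA from a pool of 11 mouse cell lines, so every level below is a log2 ratio of lung to reference RNA. Such a ratio compares one gene between arrays and does not rank genes by abundance. RNA came from sections of whole lung, so more cells that express a gene and more RNA per cell cannot be told apart. The labels do not state that each array came from a separate mouse, and if some did not, the p-values measure only the spread between these samples.

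CC chemokines are small secreted proteins that guide leukocytes through G protein-coupled receptors. CCL2, CCL7 and CCL12 bind CCR2, the receptor by which classical monocytes leave the bone marrow and enter inflamed tissue, and mouse CCL8 is best known as a ligand of CCR8. In the lung, epithelium, macrophages and stromal cells release these proteins after injury or particle exposure, largely through NF-kB and interferon signalling.

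The 4 genes lie close together on mouse chromosome 11, in the order Ccl2, Ccl7, Ccl11, Ccl12 and Ccl8, with Ccl1 after them and a long non-coding RNA gene, Gm38913, between Ccl11 and Ccl12. The upstream sequences of Ccl12 and Ccl8 are shown because the promoter table used had no match for Ccl2 and Ccl7. They are the 250 bases before the annotated start in RefSeq, build GRCm38.p6, on the plus strand at chr11:82101595-82101844 for Ccl12 and at chr11:82114935-82115184 for Ccl8. Of the 4 genes, 2 were matched in the RefSeq promoter table used. Capitals mark the match to TATAAAA.
Ccl12: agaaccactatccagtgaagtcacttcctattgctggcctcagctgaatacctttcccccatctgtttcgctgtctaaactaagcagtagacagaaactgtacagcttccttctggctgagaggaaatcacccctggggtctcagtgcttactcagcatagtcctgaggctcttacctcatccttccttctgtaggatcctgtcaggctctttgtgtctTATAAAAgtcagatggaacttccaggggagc
Ccl8: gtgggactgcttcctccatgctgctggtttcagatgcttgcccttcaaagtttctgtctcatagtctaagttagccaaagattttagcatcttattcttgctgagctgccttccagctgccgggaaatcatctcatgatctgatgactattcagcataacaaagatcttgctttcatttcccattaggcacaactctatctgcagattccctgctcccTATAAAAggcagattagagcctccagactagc
Both windows held TATAAAA on the plus strand, 31 to 25 bases before the start of Ccl12 and 32 to 26 bases before the start of Ccl8. This motif was chosen after the sequences had been read, and 4.98% of the 32851 promoter windows of the same length held it on either strand. Both strands were also searched for the NF-kB motif, TGANTCA (AP-1), the interferon-stimulated response element (ISRE), TTCNNNGAA (GAS, the STAT site) and TTGCNNAA (C/EBP). Neither window held any of these motifs, which 45.8%, 6.75%, 2.98%, 7.02% and 9.56% of all windows held. The absence says only that these letters are not in these windows.

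Across the 35 arrays, between 42.8% and 69.3% of probes were above background in Cy5, and the median Cy5 signal ran from 85.5 to 345.5. The number of arrays limits the precision of all values. The arrays lay on 7 slides scanned on 6 days. The brightest arrays were NRCWE-044 18 µg replicate 23 and NRCWE-044 54 µg replicate 24, both on slide 4. The lung epithelial genes Sftpc, Scgb1a1 and Ager were well above background on all 35 arrays.

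Ccl2, also called MCP-1, rose at 54 µg of every material. In the 5 controls its log2 ratios were -4.46, -4.82, -5.42, -3.42 and -4.75, in replicate order, a mean of -4.57 ± 0.73 SD, n = 5. After 54 µg of NRCWE-043 they were -2.35, -1.88, -1.4, -1.67 and -1.92 (mean -1.85 ± 0.35 SD, n = 5), and after 54 µg of NRCWE-044 they were -2.05, -1.8, -1.34, -2.52 and -0.9 (mean -1.72 ± 0.63 SD, n = 5). Every array of these 2 groups lay above the highest control. After 54 µg of NRCWE-045 the values were -2.18, -2.01, -2.77, -2.47 and -3.46 (mean -2.58 ± 0.57 SD, n = 5). Here 4 of 5 arrays lay above every control, and replicate 35 fell just under control replicate 29. The changes against control were 2.73 ± 0.39 (SE, adjusted p = 4.3e-05) for NRCWE-043, 2.85 ± 0.39 (SE, adjusted p = 4.3e-05) for NRCWE-044 and 2.0 ± 0.39 (SE, adjusted p = 0.02) for NRCWE-045, from limma with Benjamini-Hochberg adjustment. They correspond to 6.63-fold, 7.23-fold and 3.99-fold higher ratios. In each of the 3 comparisons Ccl2 had the 10th highest change among 25534 features. All 3 comparisons use the same 5 controls, as do those of the other genes.

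At 18 µg, Ccl2 ratios were -3.45, -2.46, -3.66, -3.56 and -3.37 for NRCWE-043 (mean -3.3 ± 0.48 SD, n = 5). For NRCWE-044 they were -3.97, -3.79, -5.06, -4.9 and -2.47 (mean -4.04 ± 1.04 SD, n = 5), and for NRCWE-045 they were -3.65, -4.43, -3.07, -3.91 and -4.75 (mean -3.96 ± 0.66 SD, n = 5). All 3 groups overlapped the controls. The difference from control was 1.28 ± 0.39 (SE, adjusted p = 0.058) for NRCWE-043, which did not pass in limma. It was 0.54 ± 0.39 (SE) and 0.61 ± 0.39 (SE) for NRCWE-044 and NRCWE-045, with limma adjusted p of 0.61 and 1. Without control replicate 29 the NRCWE-043 difference passed, at 1.56 with a limma adjusted p of 0.021. The Ccl2 probe is printed 10 times on each array, which gives a direct view of printing and scanning error. The SD between these spots was 0.027 to 0.18 per array, with a median of 0.078, against an SD between arrays of one group of 0.35 to 1.04.

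Ccl7, or MCP-3, binds CCR1, CCR2 and CCR3 and rose at 54 µg of every material. Its controls read -3.77, -4.18, -4.3, -2.25 and -4.02 (mean -3.7 ± 0.84 SD, n = 5). The 54 µg arrays read -0.98, -0.61, 0.025, -0.29 and -0.59 for NRCWE-043 (mean -0.49 ± 0.38 SD, n = 5) and -0.44, -0.36, -0.46, -1.38 and 0.25 for NRCWE-044 (mean -0.48 ± 0.58 SD, n = 5). For NRCWE-045 they read -0.89, -0.77, -1.68, -0.87 and -2.15 (mean -1.27 ± 0.61 SD, n = 5). No array of the 3 groups fell into the control range. The changes were 3.21 ± 0.41 (SE, adjusted p = 9.5e-06) for NRCWE-043 and 3.22 ± 0.41 (SE, adjusted p = 2.2e-05) for NRCWE-044, or 9.28-fold and 9.34-fold in limma. For NRCWE-045 the change was 2.43 ± 0.41 (SE, adjusted p = 0.014), or 5.39-fold in limma.

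In limma, Ccl7 was the one gene of the 4 that passed at 18 µg, and it did so after NRCWE-043. The ratios were -2.49, -1.3, -2.29, -2.43 and -1.78 for that group (mean -2.06 ± 0.51 SD, n = 5), with 2 of 5 arrays above every control and all 5 above the control mean. The change was 1.65 ± 0.41 (SE, adjusted p = 0.016), or 3.13-fold in limma. That call was lost on leaving out NRCWE-043 18 µg replicate 10, control replicate 15 or control replicate 30, with limma adjusted p up to 0.066. It was also lost with slide as a fixed block, at 1.51 (limma adjusted p = 0.06), and in a fit of only the groups compared (limma adjusted p = 0.099). The 18 µg arrays of NRCWE-044 read -3.61, -3.33, -4.0, -4.7 and -2.23 (mean -3.57 ± 0.91 SD, n = 5) and those of NRCWE-045 -2.69, -3.54, -1.81, -2.45 and -3.89 (mean -2.88 ± 0.84 SD, n = 5). Both groups overlapped the controls. Their differences from control were 0.13 ± 0.41 (SE) and 0.83 ± 0.41 (SE), with limma adjusted p of 0.92 and 1.

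Ccl12, or MCP-5, is a CCR2 ligand found in the mouse. Controls read 0.37, -0.048, 0.33, 0.8 and 0.24 (mean 0.34 ± 0.31 SD, n = 5). After 54 µg the ratios were 1.24, 1.3, 2.11, 2.01 and 1.94 for NRCWE-043 (mean 1.72 ± 0.42 SD, n = 5) and 1.41, 1.67, 1.69, 1.38 and 2.75 for NRCWE-044 (mean 1.78 ± 0.56 SD, n = 5). They were 1.46, 1.55, 1.41, 1.61 and 1.09 for NRCWE-045 (mean 1.42 ± 0.2 SD, n = 5). All 15 arrays lay above the highest control. The changes were 1.38 ± 0.24 (SE, adjusted p = 0.00032) for NRCWE-043, 1.44 ± 0.24 (SE, adjusted p = 0.00039) for NRCWE-044 and 1.08 ± 0.24 (SE, adjusted p = 0.038) for NRCWE-045 in limma, or 2.6-fold, 2.71-fold and 2.12-fold.

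At 18 µg Ccl12 read -0.012, 1.11, 0.89, 0.85 and 0.84 for NRCWE-043 (mean 0.74 ± 0.43 SD, n = 5) and 0.55, 0.5, 1.03, 1.54 and 0.6 for NRCWE-045 (mean 0.84 ± 0.44 SD, n = 5). The NRCWE-044 arrays read -0.64, -0.25, 0.2, -0.54 and 0.23 (mean -0.2 ± 0.4 SD, n = 5), and all 5 lay below the control mean. None of the 3 differences from control passed. They were 0.4 ± 0.24 (SE), -0.54 ± 0.24 (SE) and 0.51 ± 0.24 (SE) for NRCWE-043, NRCWE-044 and NRCWE-045, with limma adjusted p of 0.38, 0.43 and 1.

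Ccl8, or MCP-2, rose at 54 µg of NRCWE-043 and NRCWE-044. Controls read 1.5, 0.45, 1.29, 1.7 and 1.45 (mean 1.28 ± 0.49 SD, n = 5). The 54 µg arrays read 2.45, 3.61, 3.62, 3.54 and 3.49 for NRCWE-043 (mean 3.34 ± 0.5 SD, n = 5) and 4.56, 3.92, 3.35, 3.47 and 4.53 for NRCWE-044 (mean 3.97 ± 0.57 SD, n = 5). Neither group overlapped the controls. The changes were 2.07 ± 0.37 (SE, adjusted p = 4e-04) and 2.69 ± 0.37 (SE, adjusted p = 4.4e-05) in limma, or 4.18-fold and 6.45-fold. After 54 µg of NRCWE-045 the ratios were 2.54, 3.35, 2.62, 3.57 and 1.29 (mean 2.67 ± 0.9 SD, n = 5), with 4 of 5 arrays above every control and replicate 35 inside the control range. That difference, 1.39 ± 0.37 (SE, adjusted p = 0.093), did not pass in limma. It passed without replicate 35, at 1.74 with a limma adjusted p of 0.021. It also passed with slide as a random block, at 1.39 (limma adjusted p = 0.048), and with array weights, at 1.42 (limma adjusted p = 0.033).

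At 18 µg Ccl8 read 2.46, 2.31, 1.84, 1.78 and 1.91 for NRCWE-043 (mean 2.06 ± 0.31 SD, n = 5), all above the highest control. The difference of 0.78 ± 0.37 (SE, adjusted p = 0.24) did not pass in limma. In that comparison, 2.95% of all features had groups that do not overlap. NRCWE-044 read 1.28, 1.54, 1.17, 0.13 and 2.16 (mean 1.26 ± 0.74 SD, n = 5) and NRCWE-045 read 0.75, 1.6, 2.55, 1.67 and 2.49 (mean 1.81 ± 0.74 SD, n = 5). Their differences were -0.023 ± 0.37 (SE) and 0.53 ± 0.37 (SE), with limma adjusted p of 0.99 and 1.

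**Figure D1:**
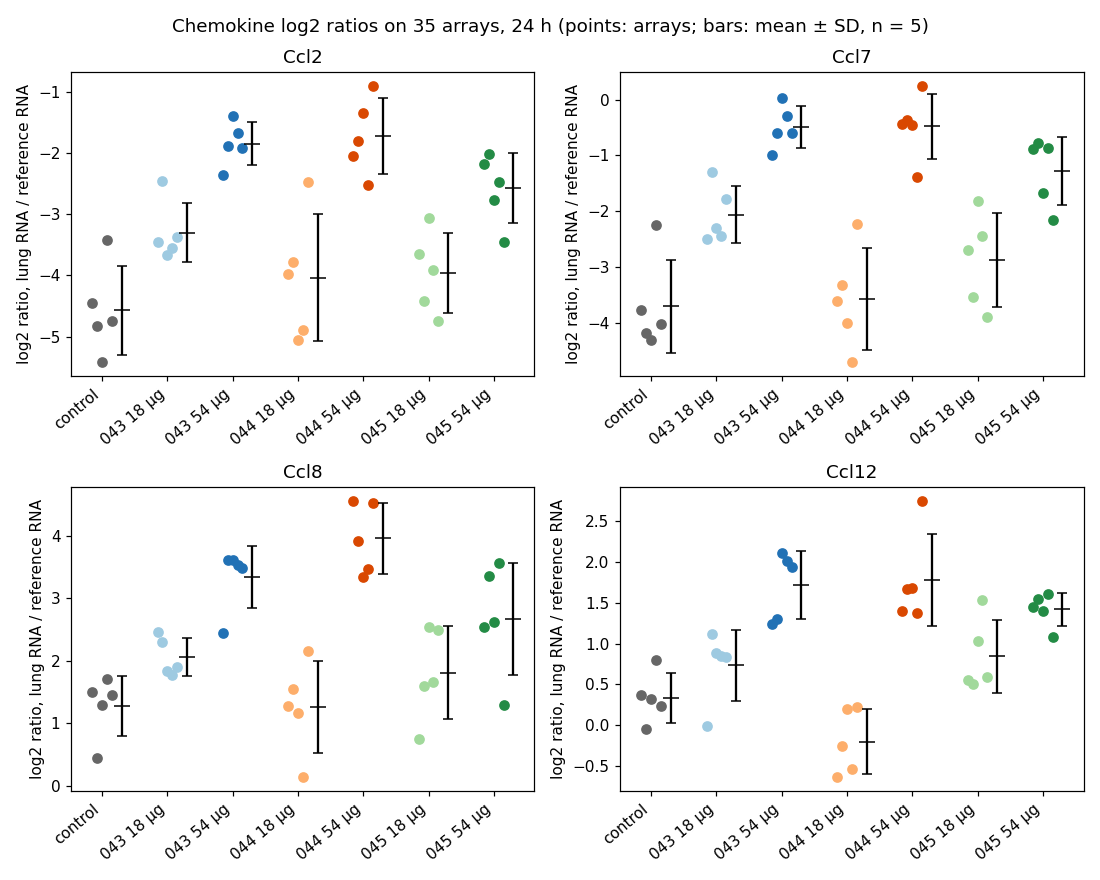
Log2 ratio of lung to reference RNA (vertical axis) on every array for Ccl2, Ccl7, Ccl8 and Ccl12, by group, with points for the 5 arrays and bars for mean ± SD. The 54 µg groups of NRCWE-043 and NRCWE-044 lie above all controls for the 4 genes, and the NRCWE-044 18 µg means lie between -4.04 for Ccl2 and 1.26 for Ccl8.

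The groups did not overlap for 4 of 4 genes after 54 µg of NRCWE-043, for 4 of 4 after NRCWE-044 and for 2 of 4 after NRCWE-045, where 8.29%, 6.65% and 2.41% of all features did not overlap. Counted together at 54 µg, 4 of 4 genes rose after NRCWE-043, where 5.33% of all features were called higher, and 4 of 4 after NRCWE-044, where 3.92% were. After NRCWE-045, 3 of 4 rose, against 0.305% of features. At 18 µg, 1 of 4 rose after NRCWE-043, against 1.36% of features. Because the 4 genes were chosen with earlier results of these data known, these shares give scale and are not a test. None of the 4 was called at 18 µg of NRCWE-044 or NRCWE-045, where limma called 0% of features, and where 2783 and 707 features had an unadjusted p under 0.05. The median change of all features lay between -0.027 and 0.011 in the 6 comparisons with control. With one array left out at a time, NRCWE-045 gave 0 to 4 called genes at 54 µg, and all 4 genes passed in each of the 10 fits for NRCWE-043 and for NRCWE-044. No gene passed for NRCWE-045 when control replicate 2, 7 or 30 or its own replicate 8 was left out, and 1 passed when control replicate 15 or its own replicate 14 or 32 was.

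Centring each array on its median in place of loess ended the 3 NRCWE-045 calls at changes of 2.01 for Ccl2, 2.43 for Ccl7 and 1.08 for Ccl12, the Ccl12 call for NRCWE-044 at 1.31, and the Ccl7 call at 18 µg of NRCWE-043 at 1.58 (limma adjusted p of 0.29, 0.29, 1, 0.18 and 0.19).

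Exact two-sided permutation tests of 5 against 5 arrays were run for each gene and treated group, 24 in all. Their smallest possible p is 0.0079. For all 4 genes in NRCWE-043 and NRCWE-044 at 54 µg, the exact p was 0.0079. In NRCWE-045 at 54 µg the exact p was 0.0079 for Ccl7 and Ccl12, 0.016 for Ccl2 and 0.04 for Ccl8. At 18 µg of NRCWE-043 the exact p was 0.0079 for Ccl8, 0.032 for Ccl2 and Ccl7, and 0.13 for Ccl12. There the exact test put Ccl8 before Ccl7, the reverse of limma, which called Ccl7 and not Ccl8.

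**Figure D2:**
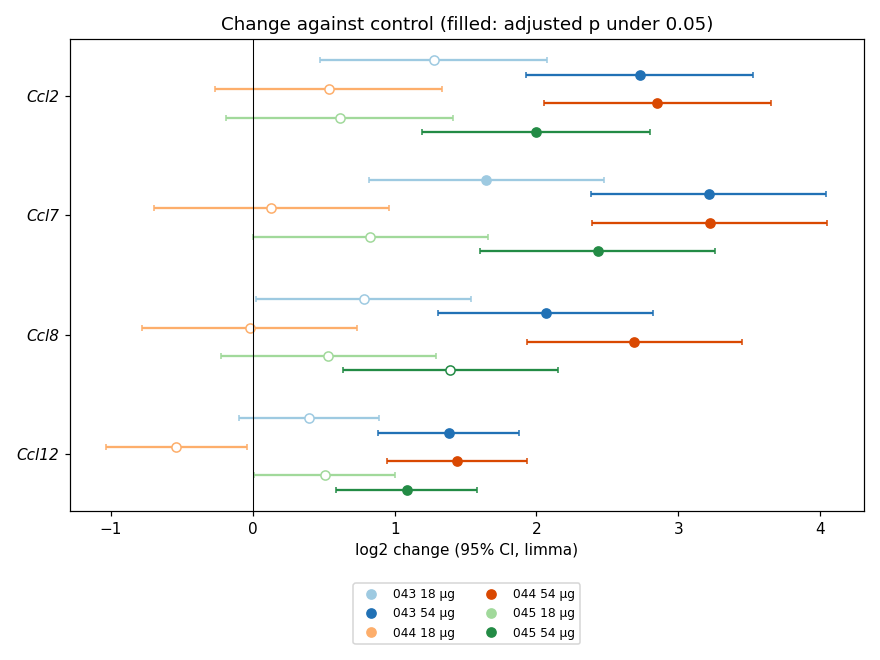
Log2 change against control with its 95% confidence interval from limma (horizontal axis) for each gene, material and dose, with filled points for adjusted p under 0.05. All 6 points of NRCWE-043 and NRCWE-044 at 54 µg for Ccl2, Ccl7 and Ccl12 are filled, from 1.38 to 3.22, and the NRCWE-045 point of Ccl8 is open at 1.39.

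Single arrays were high or low for all 4 genes at once. Control replicate 29 was the highest of the 5 controls for all 4 genes, at -3.42 for Ccl2, -2.25 for Ccl7, 0.8 for Ccl12 and 1.7 for Ccl8. Its mean log2 ratio over 13 monocyte marker genes was 1.51, also the highest of the controls, which ran from 1.16. Among treated arrays, NRCWE-044 18 µg replicate 23 was the highest of its group for all 4 genes, and its monocyte marker mean of 1.48 was the highest of its group too. NRCWE-045 54 µg replicate 35 and NRCWE-043 54 µg replicate 3 were the lowest of their groups for all 4. The part of monocyte RNA in these differences was not tested. With control replicates 7 and 29 both left out, the changes at 54 µg were 3.03, 3.15 and 2.3 for Ccl2 after NRCWE-043, NRCWE-044 and NRCWE-045, and the count of called genes was 4, 4 and 2.

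Slides were compared because the groups were spread over them. Where a slide held both a 54 µg group and controls, the difference was positive on every such slide for all 4 genes and all 3 materials. It ran from 2.29 to 3.88 over 2 slides for Ccl2 after NRCWE-043, from 2.23 to 3.61 over 3 slides after NRCWE-044, and from 0.66 to 3.41 over 4 slides after NRCWE-045. For Ccl7 after NRCWE-045 the within-slide difference ran from 0.57 to 3.52. At 18 µg of NRCWE-045, the within-slide differences of Ccl2 and Ccl7 took both signs, from -1.33 to 2.35 and from -1.64 to 2.49 over 3 slides.

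The order of the 7 group means was nearly the same for the 4 genes. For Ccl2 and Ccl7 it ran from NRCWE-044 54 µg over NRCWE-043 54 µg, NRCWE-045 54 µg, NRCWE-043 18 µg, NRCWE-045 18 µg and NRCWE-044 18 µg down to control. Ccl8 and Ccl12 had the same 3 groups on top in the same order, with NRCWE-044 18 µg last, below the control. Every pair of neighbours in these orders overlapped. The difference between the top 2 groups was smaller than the larger SD of the pair for Ccl2, Ccl7 and Ccl12, and for Ccl8 it was 0.62 against an SD of 0.57. The lowest pair differed by less than its larger SD for Ccl2, Ccl7 and Ccl8, and for Ccl12 by 0.54 against 0.4.

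The dose comparison asked how each material's 54 µg arrays differed from its 18 µg arrays, a 3-fold step. NRCWE-044 showed the step in all 4 genes, where 4.92% of features were called higher. Ccl7 was 3.09 ± 0.41 (SE, adjusted p = 1.9e-05) higher in limma, Ccl8 2.71 ± 0.37 (SE, adjusted p = 2.6e-05), Ccl2 2.32 ± 0.39 (SE, adjusted p = 0.00032) and Ccl12 1.98 ± 0.24 (SE, adjusted p = 7.8e-06). The dose groups did not overlap for Ccl7, Ccl8 and Ccl12, as for 4.89% of all features. For Ccl2, replicate 23 at 18 µg, at -2.47, lay just above replicate 31 at 54 µg, at -2.52. Without replicate 23 the Ccl2 step was 2.71.

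For NRCWE-043, 2 of 4 genes passed, against 0.909% of features called higher. They were Ccl7, 1.57 ± 0.41 (SE, adjusted p = 0.048) in limma, and Ccl12, 0.98 ± 0.24 (SE, adjusted p = 0.038) in limma. Ccl2 and Ccl8 differed by 1.45 ± 0.39 (SE) and 1.28 ± 0.37 (SE), with limma adjusted p of 0.057 and 0.079. The dose groups did not overlap for Ccl2, Ccl7 and Ccl12, as for 3.08% of all features. With one array left out, 0 to 3 genes passed. It was 0 without NRCWE-043 18 µg replicate 5 or 54 µg replicate 16, 19 or 22, and 1 without 18 µg replicate 20 or 26 or 54 µg replicate 9. Ccl2 passed as well with slide as a random block, with the Cy5 channel alone, with a filter of all 5 arrays and with marked spots kept (limma adjusted p of 0.038, 0.037, 0.048 and 0.049). The Ccl7 call was lost with slide as a fixed block (limma adjusted p = 0.061). It was also lost with no filter, the mean over probes, and trend and robust variance (limma adjusted p of 0.063, 0.052 and 0.055). Scale normalization ended it as well, while Ccl8 passed there (limma adjusted p of 0.056 and 0.022). In a fit of only the groups compared, Ccl12 was lost and Ccl2 passed (limma adjusted p of 0.11 and 0.039). Under median centring neither NRCWE-043 call held, at 1.83 for Ccl7 and 1.1 for Ccl12 (limma adjusted p of 0.26 and 0.58). For NRCWE-045 none of the 4 passed, where limma called 0% of features and 971 had an unadjusted p under 0.05. The differences were 1.39 ± 0.39 (SE) for Ccl2, 1.6 ± 0.41 (SE) for Ccl7, 0.86 ± 0.37 (SE) for Ccl8 and 0.58 ± 0.24 (SE) for Ccl12. All 4 intervals lay above 0, at 0.59 to 2.19, 0.78 to 2.43, 0.1 to 1.62 and 0.083 to 1.07 (95% confidence, unadjusted).

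The materials were compared at matched doses, in 6 pairs for each gene. At 18 µg, Ccl7 and Ccl12 were lower after NRCWE-044 than after NRCWE-043, 2 of 4 genes against 5.58% of features called lower. The differences were -1.51 ± 0.41 (SE, adjusted p = 0.013) for Ccl7 and -0.94 ± 0.24 (SE, adjusted p = 0.011) for Ccl12 in limma. The difference was negative on all 4 slides that held both groups, for each of the 4 genes. Without NRCWE-044 18 µg replicate 23 the Ccl2 difference of -0.74 ± 0.39 (SE) became -1.13 and passed, with a limma adjusted p of 0.046. The Ccl7 call was lost without NRCWE-043 18 µg replicate 10 or NRCWE-044 18 µg replicate 21, with limma adjusted p up to 0.053. Ccl12 was also 1.04 ± 0.24 (SE, adjusted p = 0.042) higher after NRCWE-045 than after NRCWE-044 in limma, 1 of 4 genes against 0.364% of features. Those 2 groups did not overlap, as was so for 2.4% of features, but the call held in 2 of the 10 fits that left out one array, without NRCWE-044 18 µg replicate 17 or 23, and its limma adjusted p reached 0.14. None of these 3 calls held under median centring, at -1.61, -0.9 and 0.86 (limma adjusted p of 0.067, 0.24 and 1). No gene passed between NRCWE-045 and NRCWE-043 at 18 µg, where limma called 8.52% of features.

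At 54 µg no gene passed between materials. Limma called 7.56% of features between NRCWE-044 and NRCWE-043, 5.37% between NRCWE-045 and NRCWE-043, and 0% between NRCWE-045 and NRCWE-044, where 1543 had an unadjusted p under 0.05. NRCWE-044 differed from NRCWE-043 by 0.13 for Ccl2 (95% interval -0.68 to 0.93), 0.01 for Ccl7 (-0.82 to 0.84), 0.62 for Ccl8 (-0.13 to 1.38) and 0.058 for Ccl12 (-0.44 to 0.55). NRCWE-045 read lower than NRCWE-044 by point estimate in all 4 genes, with differences of -0.86 ± 0.39 (SE) for Ccl2, -0.79 ± 0.41 (SE) for Ccl7, -1.3 ± 0.37 (SE) for Ccl8 and -0.36 ± 0.24 (SE) for Ccl12. Their limma adjusted p was 0.78, 0.86, 0.31 and 0.94. The Ccl8 interval, -2.05 to -0.54, excluded 0 without adjustment. On slide 7, with 1 array of each group, the differences were -2.57 for Ccl2, -2.4 for Ccl7, -3.24 for Ccl8 and -1.66 for Ccl12. On the other shared slides they took both signs for each gene. There they ran from -0.2 to 0.041 for Ccl2, -0.44 to 0.51 for Ccl7, -2.03 to 0.092 for Ccl8 and -0.11 to 0.23 for Ccl12. The dose step itself was also compared between materials, as an interaction. No gene passed, limma called 0% of features in each of the 3 interactions, and 834 to 1143 features had an unadjusted p under 0.05. The interaction with the smallest unadjusted p was Ccl12 in NRCWE-045 against NRCWE-044, -1.4 ± 0.34 (SE), with a limma adjusted p of 0.86.

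**Figure D3:**
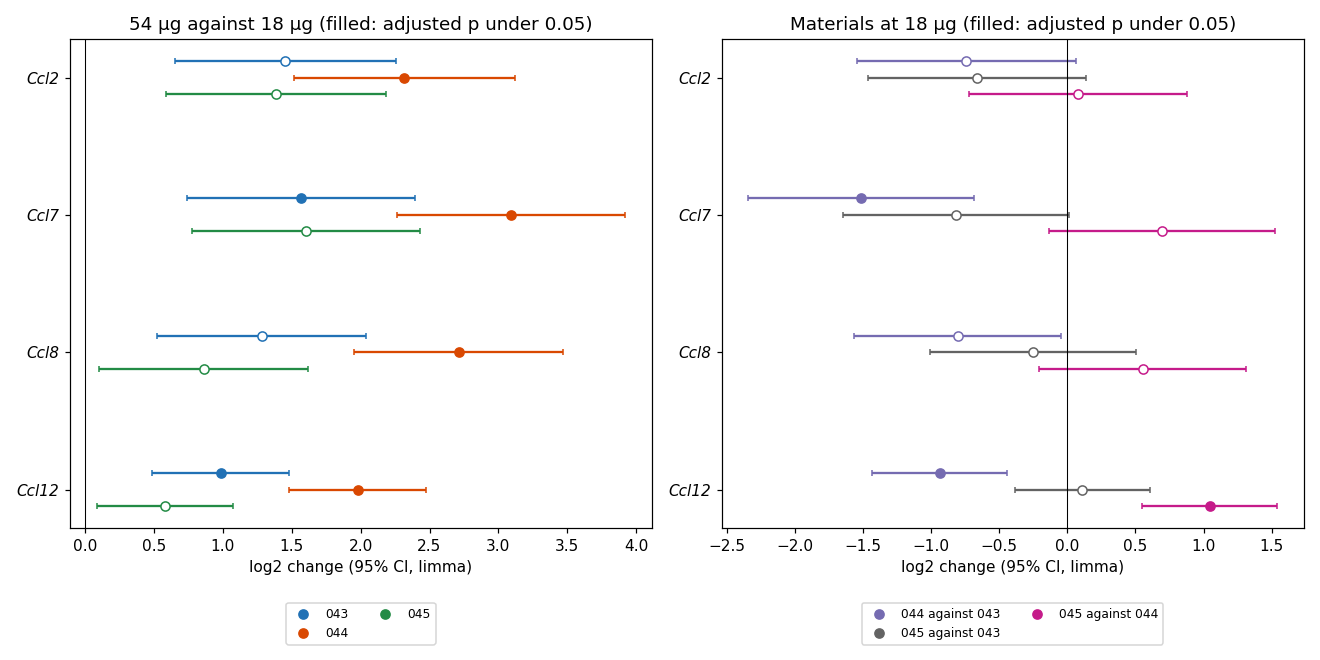
Left, log2 difference of 54 µg from 18 µg for each material; right, log2 difference between materials at 18 µg; both with 95% confidence intervals from limma and filled points for adjusted p under 0.05. The 4 NRCWE-044 dose steps, 1.98 to 3.09, are filled, and on the right the filled points are Ccl7 at -1.51 and Ccl12 at -0.94 and 1.04.

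The 4 genes also varied together between arrays of one group. After group means had been removed, Ccl2 and Ccl7 correlated over the 35 arrays with a Pearson r of 0.93 and a Spearman rho of 0.91 (permutation within groups, p = 1e-05 for both, the smallest these permutations can give, and 6e-05 after adjustment over the 6 pairs). Without the 2 arrays farthest from the median of Ccl2, NRCWE-044 18 µg replicate 23 and control replicate 29, r was 0.91. The other 5 pairs had r from 0.41 for Ccl8 and Ccl12 to 0.66 for Ccl7 and Ccl12. For Ccl8 and Ccl12 the adjusted permutation p was 0.02 for r and 0.03 for rho (rho = 0.38), and r was 0.36 without the 2 farthest arrays. Arrays share labelling, slide and tissue section, so these values also carry what is common to an array.

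Among 15299 other named genes, those most like the mean of the 4 over all 35 arrays were Timp1 (Pearson r = 0.96), Ccdc167 (0.95), Saa3 (0.95), Dok2 (0.94), Cxcl10 (0.94), AA467197 (0.94), Mcm5 (0.94) and Bola2 (0.94). With group means removed they were Timp1 (0.85), Nfkbie (0.84), Dok2 (0.83), Ccl9 (0.82), Saa3 (0.82), Ccdc167 (0.81), Bola2 (0.8) and AA467197 (0.79). Timp1 encodes an inhibitor of metalloproteinases, Saa3 an acute-phase protein and Cxcl10 an interferon-induced chemokine. At 54 µg Saa3 was 6.8, 7.03 and 4.77 higher than control after NRCWE-043, NRCWE-044 and NRCWE-045, and Timp1 3.62, 3.68 and 2.56 higher, each passing in limma with adjusted p of at most 0.037.

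The receptors were described next. Of 6 receptors and decoys, 5 were tested, and Ccr1 was not above background on any array. At 54 µg, 1 of 5 rose after NRCWE-043, 3 of 5 after NRCWE-044 and none after NRCWE-045, with median changes of 0.36, 0.49 and 0.17. The shares of all features called higher were 5.33%, 3.92% and 0.305%. Ccr2, the receptor of CCL2, CCL7 and CCL12, had control ratios from 0.9 to 1.33. It read 1.7 to 2.53 after NRCWE-043 and 1.44 to 3.01 after NRCWE-044, above every control, and 0.93 to 1.97 after NRCWE-045. Its changes were 1.16 ± 0.24 (SE, adjusted p = 0.0017) and 1.03 ± 0.24 (SE, adjusted p = 0.0076) in limma, and 0.4 ± 0.24 (SE, adjusted p = 0.68) for NRCWE-045, which did not pass.

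Ccr3, the eotaxin receptor, and Ackr1, a decoy on red cells and venules, passed after NRCWE-044 in limma, at 0.95 ± 0.22 (SE, adjusted p = 0.006) and 0.49 ± 0.13 (SE, adjusted p = 0.017). After NRCWE-043 they differed by 0.63 and 0.36, with limma adjusted p of 0.057 and 0.069. Ccr3 was above background on 1 of 5 control arrays and on 5 of 5 arrays of each of these groups. The Ackr1 probe was likewise above background on 1 of 5 controls. For NRCWE-043, NRCWE-044 and NRCWE-045 it was so on 2, 1 and 1 of 5 arrays at 18 µg and on 5, 5 and 4 at 54 µg. Ackr1 thus passed the filter on dim probes through the 54 µg groups alone, and its control values lie near background. Ackr2, a scavenging decoy, and Ccr8, the receptor of mouse CCL8, differed by between -0.33 and 0.15 and did not pass for any material in limma. The Ackr2 probe used was above background on all 35 arrays, and another Ackr2 probe, dim and not tested, on 9. The Ccr8 probe used was so on 14 of 35 arrays, with 2 of 5 controls and 0 of 5 arrays at 54 µg of NRCWE-043. Another Ccr8 probe, not tested, was above background on 0 arrays. The values of the Ccr8 probe used lie near background and cannot show whether Ccr8 was unchanged.

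Other CC ligands moved as well, 5 of 11 tested higher and 1 lower after NRCWE-043, 6 higher and 1 lower after NRCWE-044, and none after NRCWE-045, with median changes of 0.88, 0.89 and 0.58. Of all features, 5.33% were called higher and 4.86% lower after NRCWE-043, 3.92% and 2.02% after NRCWE-044, and 0.305% higher after NRCWE-045. Ccl24, an eosinophil attractant, had changes of 3.41 ± 0.66 (SE, adjusted p = 0.00085) after NRCWE-043 and 4.18 ± 0.66 (SE, adjusted p = 0.00017) after NRCWE-044 in limma. Ccl9, a CCR1 ligand, rose by 1.79 ± 0.32 (SE, adjusted p = 0.00039) and 1.99 ± 0.32 (SE, adjusted p = 0.00022) in limma. Ccl4, a macrophage inflammatory protein, rose by 1.81 ± 0.31 (SE, adjusted p = 0.00021) and 1.57 ± 0.31 (SE, adjusted p = 0.0016) in limma. Ccl11, or eotaxin, whose gene sits between Ccl7 and Ccl12, rose by 1.39 ± 0.37 (SE, adjusted p = 0.012) and 1.96 ± 0.37 (SE, adjusted p = 0.001) in limma, and was above background on 3 of 5 controls. Ccl17 passed after NRCWE-044, at 1.95 ± 0.45 (SE, adjusted p = 0.0061) in limma. Ccl27a, a skin-homing chemokine, was the one that fell, by 0.64 and 0.56 on the log2 scale after NRCWE-043 and NRCWE-044, with limma adjusted p of 0.0095 and 0.033. With the mean over its probes in place of the brightest one, neither call on Ccl27a held, at limma adjusted p of 0.12 and 0.21.

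**Figure D4:**
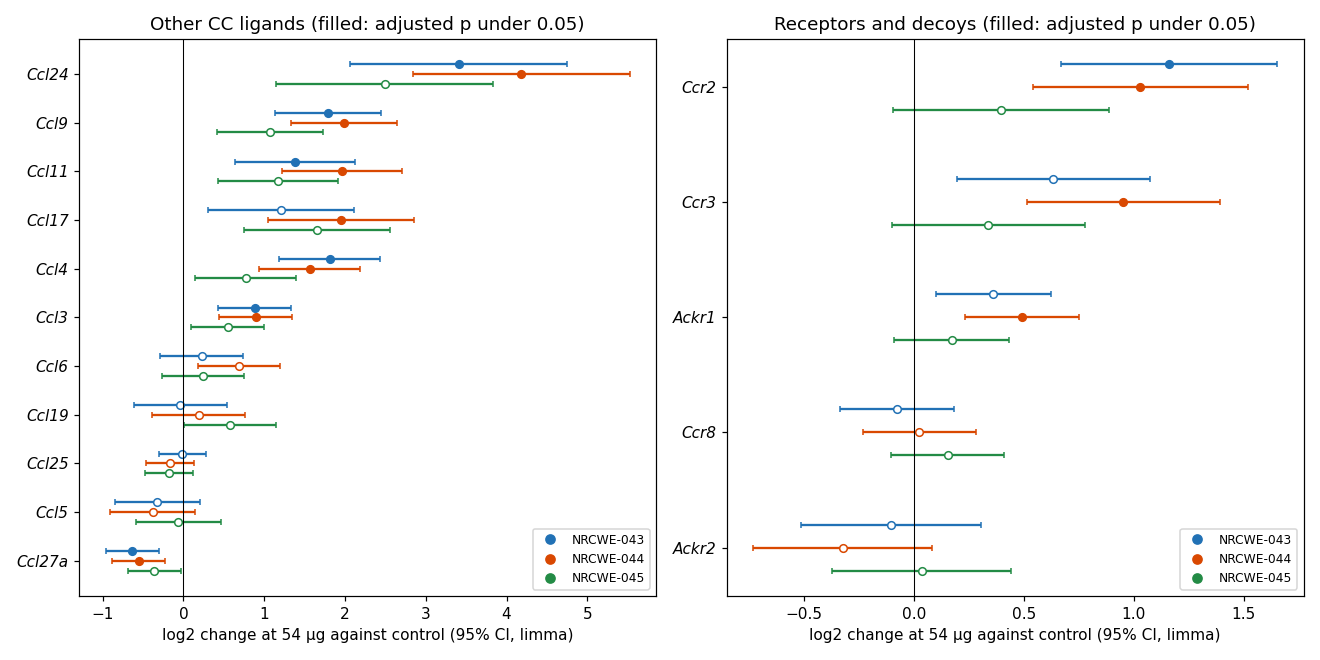
Log2 change at 54 µg against control with its 95% confidence interval from limma for the 11 tested other CC ligands (left) and the 5 tested receptors and decoys (right), with filled points for adjusted p under 0.05. Ccl24 reads 3.41 and 4.18 after NRCWE-043 and NRCWE-044, and no NRCWE-045 point is filled.

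Of the cytokines known to induce these chemokines, 5 of 10 tested rose after NRCWE-043, 5 after NRCWE-044 and 1 after NRCWE-045, with median changes of 0.55, 0.52 and 0.25. Beside them, 5.33%, 3.92% and 0.305% of all features were called higher. Il1b, an inflammasome product, rose by 1.74 ± 0.29 (SE, adjusted p = 0.00017), 1.4 ± 0.29 (SE, adjusted p = 0.0027) and 1.3 ± 0.29 (SE, adjusted p = 0.037) in limma. Il33, an alarmin of epithelial and stromal cells, rose by 1.43 ± 0.28 (SE, adjusted p = 9e-04) and 1.52 ± 0.28 (SE, adjusted p = 0.00091) in limma. Il6 rose by 1.18 ± 0.27 (SE, adjusted p = 0.0039) and 0.99 ± 0.27 (SE, adjusted p = 0.023), and Tnf by 0.55 ± 0.13 (SE, adjusted p = 0.006) and 0.49 ± 0.13 (SE, adjusted p = 0.019), in limma. The Il6 probe was above background on 1 of 5 controls and on 5 of 5 arrays of each 54 µg group. At 18 µg it was so on 2, 0 and 2 of 5 arrays. It thus passed the filter on dim probes through the 54 µg groups alone, and its control values lie near background. Tnf was above background on 3 of 5 controls. Csf1, the macrophage growth factor, rose by 0.55 and 0.54 in limma. The Il1b call in NRCWE-045 was lost without any one of control replicates 2, 7, 15 and 30 or of NRCWE-045 replicates 8, 14 and 32.

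Of 16 transcription factor and feedback genes, 4 rose after NRCWE-043, 4 after NRCWE-044 and 1 after NRCWE-045, with median changes of 0.21, 0.22 and 0.24. The shares of all features called higher were again 5.33%, 3.92% and 0.305%. Irf7, an interferon-response factor, rose by 1.16 ± 0.24 (SE, adjusted p = 0.0019) and 1.58 ± 0.24 (SE, adjusted p = 0.00014) in limma. Nfkb2, a subunit of the non-canonical NF-kB pathway, passed for all 3 materials in limma, at 0.66, 0.88 and 0.73. Socs3, a feedback inhibitor of cytokine receptors, rose by 0.77 and 0.71 in limma. Relb passed after NRCWE-043 at 0.62 and Tnfaip3 after NRCWE-044 at 0.63 in limma. Nfkbia, an NF-kB target and inhibitor, differed by -0.029, 0.16 and 0.23 and did not pass in limma. Of 2 tested mRNA decay factors, none passed for any material in limma.

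Several of these calls depended on the normalization. Under median centring, with the same signs, NRCWE-043 lost Tnf, Csf1, Nfkb2, Relb and Ccl27a (limma adjusted p of 0.068, 0.095, 0.17, 0.17 and 0.53), and NRCWE-045 lost Il1b and Nfkb2 (limma adjusted p of 0.3 and 1). NRCWE-044 lost Ccr2, Ccr3, Ackr1, Ccl3, Ccl4, Ccl17, Ccl27a, Il1b, Il6, Il33, Tnf, Csf1, Socs3, Nfkb2, Irf7 and Tnfaip3, with limma adjusted p from 0.061 for Il1b to 1 for Csf1. Nfkb2 after NRCWE-045 was also lost with scale normalization and with the Cy5 channel alone (limma adjusted p of 0.062 and 0.1). Scale normalization ended the Ccl27a call after NRCWE-044 as well (limma adjusted p = 0.057). There Ackr1 and Ccl17 passed after NRCWE-043 (limma adjusted p of 0.025 and 0.034). With the Cy5 channel alone, NRCWE-044 lost Ccr2, Ackr1, Tnf, Ccl27a and Tnfaip3 (limma adjusted p of 0.06, 0.073, 0.13, 0.059 and 0.057). Relb and Ccl11 after NRCWE-043 and Il1b after NRCWE-045 were lost there too (limma adjusted p of 0.053, 0.14 and 0.056). Il6 after NRCWE-045 passed in that setting (limma adjusted p = 0.012). With slide as a fixed block, Relb after NRCWE-043 and Il1b after NRCWE-045 were lost (limma adjusted p of 0.074 and 0.064). With slide as a random block, Ccr3 and Ackr1 passed after NRCWE-043, and Il33, Ccl24, Relb and Tnfaip3 after NRCWE-045, with limma adjusted p from 0.026 to 0.048. A fit of only the groups compared lost Ccr3 and Ackr1 after NRCWE-044 and Il1b after NRCWE-045 (limma adjusted p of 0.074, 0.063 and 0.059). In that fit Ccr3 and Ackr1 passed after NRCWE-043 (limma adjusted p of 0.019 and 0.027). Relb passed there after NRCWE-044 and NRCWE-045 (limma adjusted p of 0.019 and 0.047).

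Some marker genes of leukocytes moved beside the chemokines at 54 µg. For scale, 5.33% of all features were called higher and 4.86% lower after NRCWE-043. After NRCWE-044 these shares were 3.92% and 2.02%, and after NRCWE-045 0.305% were called higher. Of 13 tested monocyte markers, 5 rose and 2 fell after NRCWE-043, 5 rose after NRCWE-044 and none passed after NRCWE-045. Cd14, Plac8, S100a4 and Vcan rose after both NRCWE-043 and NRCWE-044, while Itgam fell by 1.34 and Ms4a4c by 0.62 on the log2 scale after NRCWE-043. The mean over the 13 genes ran from 1.16 to 1.51 in controls, 1.56 to 1.96 after 54 µg of NRCWE-043, 1.82 to 2.23 after NRCWE-044 and 1.54 to 1.99 after NRCWE-045. At 18 µg it ran from 0.91 to 1.4, 0.89 to 1.48 and 1.27 to 1.86. Of 14 neutrophil markers, 5 rose and 1 fell after NRCWE-043 and 2 rose after NRCWE-044. Their mean ran from 1.16 to 2.34 in controls, 2.02 to 2.33 after NRCWE-043, 1.84 to 2.74 after NRCWE-044 and 1.5 to 2.52 after NRCWE-045, so each range overlapped the controls. Of the interstitial macrophage markers, 3 rose after NRCWE-043, 3 after NRCWE-044 and none after NRCWE-045. Of the alveolar macrophage markers, 4 fell after NRCWE-043, 3 rose and 1 fell after NRCWE-044, and none passed after NRCWE-045. None of 14 T, NK and B cell markers was called in any of the 6 comparisons with control. Their median changes at 54 µg were 0.179, 0.003 and 0.16 after NRCWE-043, NRCWE-044 and NRCWE-045. Ly6c2 and Ly6g had no matched probe. The part of these cells in the chemokine values was not tested.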

How the data were processed

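Lung RNA labelled with Cy5 and reference RNA labelled with Cy3 were hybridised to 35 arrays in 7 groups of 5, per the labels' protocols. The authors deposited scanner intensity values from Agilent Feature Extraction 11.0.1.1, per the file headers, and log2 ratios in the series value table. The deposited log2 ratios correlated with the values used here at 0.993 to 0.999 per array, with array medians from -0.04 to 0.018.

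Intensities were corrected with normexp (offset 50) and normalized by loess within arrays in limma 3.58.1 (R 4.3.3). Control spots and spots marked as outliers were left out, and spots of a probe were averaged. A probe was kept where 3 or more arrays of a group read well above background in Cy5, and the brightest probe stood for a gene, which left 25534 features, of which 674 had a missing value on some array. One limma model over all 35 arrays gave 18 comparisons, each adjusted by Benjamini-Hochberg over all features and called at 0.05. Symbols came from RefSeq by accession: 27235 of 55681 probes matched. The model was tested on simulated data for NRCWE-043 at 54 µg against control over 25534 features and recovered 60, 94, 100 and 98% of set log2 changes of 0.5, 1, 1.5 and 2, with 3 false calls.

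The members and lists were chosen with earlier results of these data known. From each pathway list, up to 4 called genes with the largest change at 54 µg were named, with the receptors (1 listed gene is not reported here) and Il1b, Tnf, Il6, Nfkbia and Socs3 in any case. Alternatives covered background correction, normalization, the deposited ratios, outlier spots, the filter, the probe summary, slide, variance model, array weights, the arrays fitted and leaving out arrays.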

Additional observations from a re-analysis of the deposited data

Results flagged for a closer look

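The 4 genes in each of the 7 groups gave 28 sets of 5 values. In 5 sets, an array's gap to the nearest other array was over 0.71 of the set's range. Chance flags about 1 in 20 separate sets. These sets are not separate, because the genes share arrays and vary together. The flagged arrays were control replicate 29 for Ccl7 at -2.25, NRCWE-043 18 µg replicate 10 for Ccl2 at -2.46 and NRCWE-043 18 µg replicate 5 for Ccl12 at -0.012. The others were NRCWE-043 54 µg replicate 3 for Ccl8 at 2.45 and NRCWE-044 54 µg replicate 34 for Ccl12 at 2.75. The first and the fourth of these arrays were the highest and the lowest of their groups for all 4 genes.

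Materials differed at 18 µg in 3 tests of the difference itself. Against NRCWE-043, NRCWE-044 read -1.51 for Ccl7 (limma adjusted p = 0.013) and -0.94 for Ccl12 (limma adjusted p = 0.011). NRCWE-045 read 1.04 above NRCWE-044 for Ccl12 (limma adjusted p = 0.042).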

How the results depend on the processing

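All 4 genes passed for NRCWE-043 at 54 µg against control and for the NRCWE-044 dose step under every alternative run, leaving out any one array included. The same held for NRCWE-044 at 54 µg except under median centring, where 3 passed and Ccl12 did not (1.31, limma adjusted p = 0.18). The other counts of called genes that moved did so as follows, and the cause was not tested. Under median centring the count was 0 for NRCWE-043 at 18 µg, NRCWE-045 at 54 µg, the NRCWE-043 dose step, and NRCWE-044 against NRCWE-043 and NRCWE-045 against NRCWE-044 at 18 µg. The last of these was also 0 with no background correction, the deposited log2 ratios, no filter and only the groups compared. NRCWE-043 at 18 µg gave 0 with slide as a fixed block and with only the groups compared, and 2 without control replicates 7 and 29 together, an alternative chosen after seeing the data. NRCWE-045 at 54 µg, 3 as reported, gave 2 with Cy5 alone and without control replicates 7 and 29 together (Ccl12 lost, limma adjusted p of 0.055 and 0.064), and 4 with slide as a random block and with array weights (Ccl8 gained). The NRCWE-043 dose step, 2 as reported, gave 3 with Cy5 alone, the filter of all 5 arrays, marked spots kept and slide as a random block. It gave 1 with no filter, the mean over probes, slide as a fixed block, and trend and robust variance, 4 with array weights, and 0 without NRCWE-043 18 µg replicate 5 and NRCWE-044 18 µg replicate 23 together, also chosen after seeing the data. With one array left out, counts ran from 0 to 1 for NRCWE-045 against NRCWE-044 at 18 µg, 0 to 4 for NRCWE-045 at 54 µg, 0 to 3 for the NRCWE-043 dose step, 0 to 2 for NRCWE-043 at 18 µg and 1 to 3 for NRCWE-044 against NRCWE-043 at 18 µg.

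Differences that turned sign had not passed to begin with. Ccl7 for NRCWE-044 at 18 µg became -0.032 under median centring and with the Cy5 channel alone, -0.017 with slide as a fixed block and -0.24 with array weights. Ccl8 there became 0.18 with Cy5 alone, and 0.12 and 0.029 with slide as a fixed and a random block. Under median centring NRCWE-044 against NRCWE-043 at 54 µg became -0.301 for Ccl2, -0.38 for Ccl7 and -0.21 for Ccl12, the last -0.078 with scale normalization, and Ccl7 was -0.025 with Cy5 alone. Ccl12 for NRCWE-045 against NRCWE-043 at 18 µg became -0.041 under median centring, and Ccl2 for NRCWE-045 against NRCWE-044 at 18 µg -0.085 under scale normalization. The dose step of NRCWE-045 minus that of NRCWE-043 became -0.06 and -0.12 for Ccl7 (median centring, Cy5 alone) and 0.18, 0.12 and 0 for Ccl2 (scale, slide fixed, slide random). At 54 µg, Nfkbia after NRCWE-043 became 0.403 (median centring), 0.057 (scale) and 0.052 (without controls 7 and 29), and Ackr2 0.16, 0.27 and 0.032. Ackr2 after NRCWE-045 became -0.007 (scale), -0.22 (Cy5), -0.06 and -0.01 (slide fixed, random), and Ccr8 after NRCWE-044 -0.028 (Cy5). Median centring moved the median of all features from 0.008 to 0.12 for NRCWE-043 at 54 µg, and the share of higher among called features there from 52.3% to 67.2%, and from 66% to 95.3% for NRCWE-044. The calls themselves fell from 2602 to 525 and from 1518 to 43, and from 87 to 0 for NRCWE-045.

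Leaving out one array also took these across 0: Ccl7 (-0.204 to 0.494) and Ccl8 (-0.25 to 0.26) for NRCWE-044 at 18 µg, Ccl8 (-0.44 to 0.015) and Ccl12 (-0.079 to 0.202) for NRCWE-045 against NRCWE-043 at 18 µg, and Ccl2 (-0.18 to 0.47) for NRCWE-045 against NRCWE-044 at 18 µg. For NRCWE-044 against NRCWE-043 at 54 µg they were Ccl2 (-0.082 to 0.32), Ccl7 (-0.17 to 0.24) and Ccl12 (-0.19 to 0.16). The dose step of NRCWE-045 minus that of NRCWE-043 ran from -0.28 to 0.16 for Ccl2 and -0.22 to 0.302 for Ccl7. At 54 µg the others were Nfkbia (-0.097 to 0.071) and Ccr8 (-0.15 to 0.044) after NRCWE-043, Ccr8 (-0.022 to 0.095) after NRCWE-044 and Ackr2 (-0.067 to 0.11) after NRCWE-045. Arrays could not be paired by replicate number, because the groups compared share none. Slides that groups shared entered as a block and in the within-slide differences.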
